A study of Homo sapiens with 16 samples.

Results

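The comparison asked how far the joint effect of a DOT1L inhibitor and an EZH2 inhibitor on each gene equalled, fell short of or exceeded the sum of their separate effects on the log2 scale. The cells were Molm14, a KMT2A-rearranged line derived from acute myeloid leukaemia. They received DMSO alone as the solvent control, 0.16 uM of the DOT1L inhibitor EPZ5676 (group iDOT1L), 0.3 uM of the EZH2 inhibitor GSK126 (group iEZH2), or the same doses of both together (group Combo), for 7 days and with a change of medium and compound on day 4. Each group held 4 libraries and all 16 of 16 libraries entered the comparison. The study used 1 line and 1 dose of each compound, and nothing in the labels says that replicates were separate cultures. A p-value here therefore rests on the spread between libraries, which may be technical.

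DOT1L methylates histone H3 at lysine 79 along transcribed genes, and KMT2A fusion proteins recruit it to the genes they drive in leukaemia, among them the HOXA cluster, MEIS1 and MEF2C. EZH2 is the methyltransferase of Polycomb repressive complex 2 (PRC2), which modifies lysine 27 of histone H3 over silent developmental genes. When 2 agents act on a gene independently, their fold changes multiply and their log2 changes add, which makes the log2 sum a common reference for a combined treatment. The difference from that sum, Combo minus iDOT1L minus iEZH2 plus DMSO, is called the interaction below. It is 0 where the effects add, and its sign is read against the sign of the single effects: for a gene that falls, an interaction above 0 means that the joint fall was smaller than the sum.

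The inhibited enzymes were measured only as transcripts, which an inhibitor of enzyme activity need not change. DOT1L averaged 6796 ± 101 normalised counts in DMSO (SD, n = 4), 6500 ± 861 in iDOT1L, 6116 ± 237 in iEZH2 and 5906 ± 1120 in Combo. EZH2 averaged 1906 ± 221, 1750 ± 282, 2267 ± 284 and 2025 ± 137 in the same order. Neither gene passed for either inhibitor, and their interactions were 0.00072 and -0.025. Normalised totals were 22444761 to 24124680 counts per library, and the depth sequenced is unknown. Of the defining myeloid markers, 11 of 11 were in the table and their summed level was 34180 to 57180 in every library, although CD14 stood at 0 to 8.90. The lymphoid markers, 7 of 8 in the table, summed to 549 to 1444, most of it PAX5 at 430 to 1343. Their sum was 1024 to 1444 in DMSO and 549 to 860 in Combo, without overlap. The stroma and epithelium markers, 6 of 6 in the table, summed to 776 to 1560, the megakaryocyte markers, 2 of 3, to 12.8 to 55.2, and the erythroid markers, 2 of 5, to at most 19.1. The part of these markers in the results was not tested. The fourth iEZH2 library stood apart from the other three: over the 212 genes that both inhibitors raised its mean log2 level, relative to the mean of all libraries, was 0.36, against -0.22 to -0.12 in the other three and 0.015 to 0.10 in iDOT1L. Interactions without it are given for many of the genes described.

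No gene passed the test of the interaction. Of 22331 genes tested with limma, 0 lay above and 0 below 0 at a Benjamini-Hochberg adjusted p under 0.05 (0% called), and the lowest adjusted p was 0.0895. An unadjusted p under 0.05 was reached by 848 genes (3.8%), 440 above and 408 below 0. The median interaction over all genes was -0.0071, with quartiles at -0.20 and 0.17. A missed threshold does not show additivity, so the 95% interval of each interaction was set against a bound of 1.5-fold either way (0.585 on the log2 scale). That interval lay wholly inside the bound for 8034 genes (36%) and inside a bound of 2-fold for 11718 genes (52.5%). How closely additivity could be measured differed with the level of a gene. Among 4851 genes with a mean of at least 1000 normalised counts, 86.1% lay inside the 1.5-fold bound and the median half-width of the interval was 0.30. Between 100 and 1000 normalised counts 59.6% of 6316 genes did, between 10 and 100 2.14% of 4290 genes, and under 10 none of 6874 genes, whose median half-width was 1.65.

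Genes were then sorted by the mean effect of each inhibitor, taken over both backgrounds of the other one. For the DOT1L inhibitor this is the mean of the differences iDOT1L minus DMSO and Combo minus iEZH2. In 4 groups of equal size and equal spread its estimate is uncorrelated with that of the interaction. The spreads were not equal: over the genes raised by both, the SD of the library means was 0.264 in iEZH2 and 0.0187 to 0.0423 in the other groups. The choice of genes by mean effect may therefore bear on their interaction, which was not tested. The DOT1L inhibitor changed 2724 genes in its mean effect (12.2% called), 1333 up (5.97%) and 1391 down (6.23%). The EZH2 inhibitor changed 2401 (10.8% called), 1020 up (4.57%) and 1381 down (6.18%). With each library centred on its median, the split was 964 up and 1782 down for the DOT1L inhibitor and 676 up and 1419 down for the EZH2 inhibitor. Both mean effects were up in 212 genes and down in 400, and in 178 they were opposite. The sizes of these classes depend on single libraries: the opposite classes, of 66 and 112 genes, held 35 to 79 and 72 to 158 when 1 library was left out, and up to 190 and 273 under the other alternatives. These classes describe the mean effects, and the joint effect against DMSO is their sum by construction.

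The joint effect lay close to the log2 sum in each class. In the 212 genes raised by both inhibitors the median change against DMSO was 0.74 in iDOT1L, 0.73 in iEZH2 and 1.44 in Combo, where the sum of the single effects had a median of 1.53. The median interaction of these genes was -0.10, and 29.7% of them lay above 0 against 48.7% of all tested genes. In the 400 genes lowered by both the medians were -0.44, -0.46 and -0.86 against a sum of -0.95, and the median interaction was 0.056, with 62.7% above 0. With all libraries, joint rises and joint falls were slightly smaller than the sum at the median, and the 1.5-fold bound held 35.4% and 61% of the 2 classes. Without the fourth iEZH2 library the median interactions were -0.026 in the first class and 0.012 in the second, so the shortfall was then nearly absent. The part of the choice of genes in it was not tested.

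**Figure D1:**
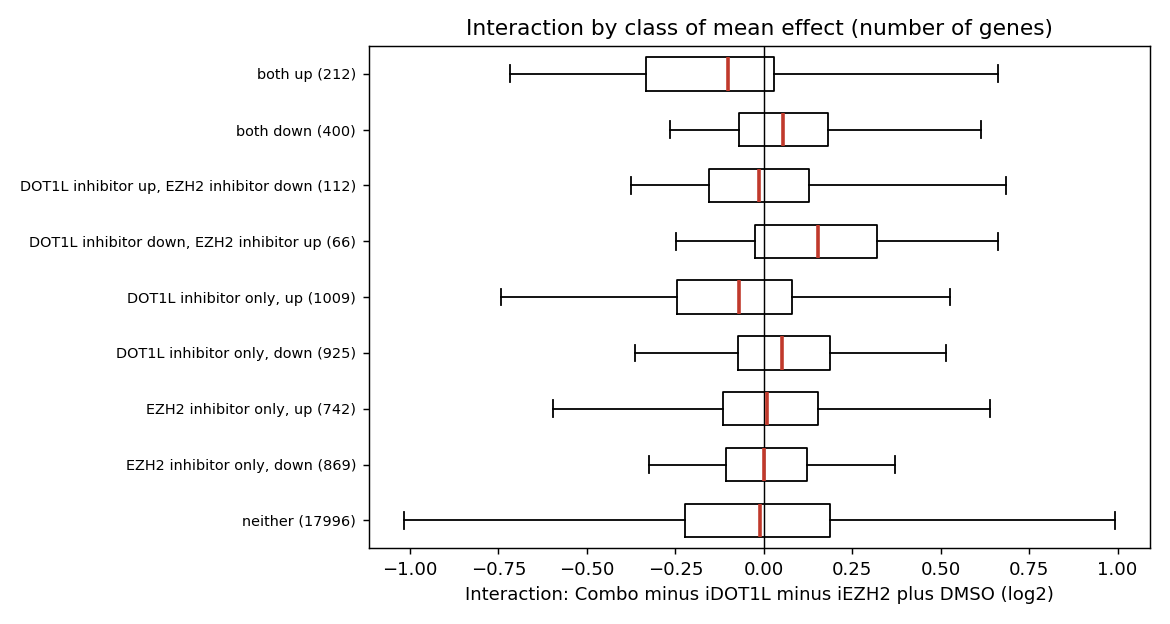
Interaction (x axis, log2) for the 9 classes of genes defined by the mean effects of the inhibitors; the box spans the quartiles, the red line is the median and the whiskers run from the 5th to the 95th percentile, with the number of genes in brackets. The medians run from -0.10 in the 212 genes raised by both to 0.15 in the 66 genes lowered by the DOT1L inhibitor and raised by the EZH2 inhibitor.

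Where the inhibitors pulled in opposite directions, the joint treatment returned the genes to near the DMSO level. In 112 genes raised by the DOT1L inhibitor and lowered by the EZH2 inhibitor, the median change was 0.47 in iDOT1L, -0.43 in iEZH2 and 0.036 in Combo, and 8 of the 112 were called in Combo against DMSO (16% of all tested genes were called there). In 66 genes with the reverse pattern the medians were -0.51, 0.39 and -0.011, and 7 were called in Combo. The median interactions were -0.014 and 0.15, and without the fourth iEZH2 library they were 0.12 and 0.037. Most of these 178 genes were not called in Combo against DMSO, although each of them was called for both inhibitors, and the choice of genes favours this as well.

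The same question can be put as 2 measurements of 1 effect that have no library in common. The effect of GSK126 without the other compound is iEZH2 minus DMSO, and its effect on top of EPZ5676 is Combo minus iDOT1L. Over the 1020 genes raised by the EZH2 inhibitor the medians of these differences were 0.47 and 0.47, and over the 1381 genes lowered by it -0.41 and -0.39. For EPZ5676, the medians alone and on top of GSK126 were 0.60 and 0.54 over 1333 raised genes and -0.43 and -0.39 over 1391 lowered genes. The size of each inhibitor's effect was thus nearly the same with and without the other at the median. The genes were chosen by the mean of the paired differences, so only their likeness to each other, and not their distance from 0, is informative here. Unequal spread between the groups can bear on that likeness too.

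**Figure D2:**
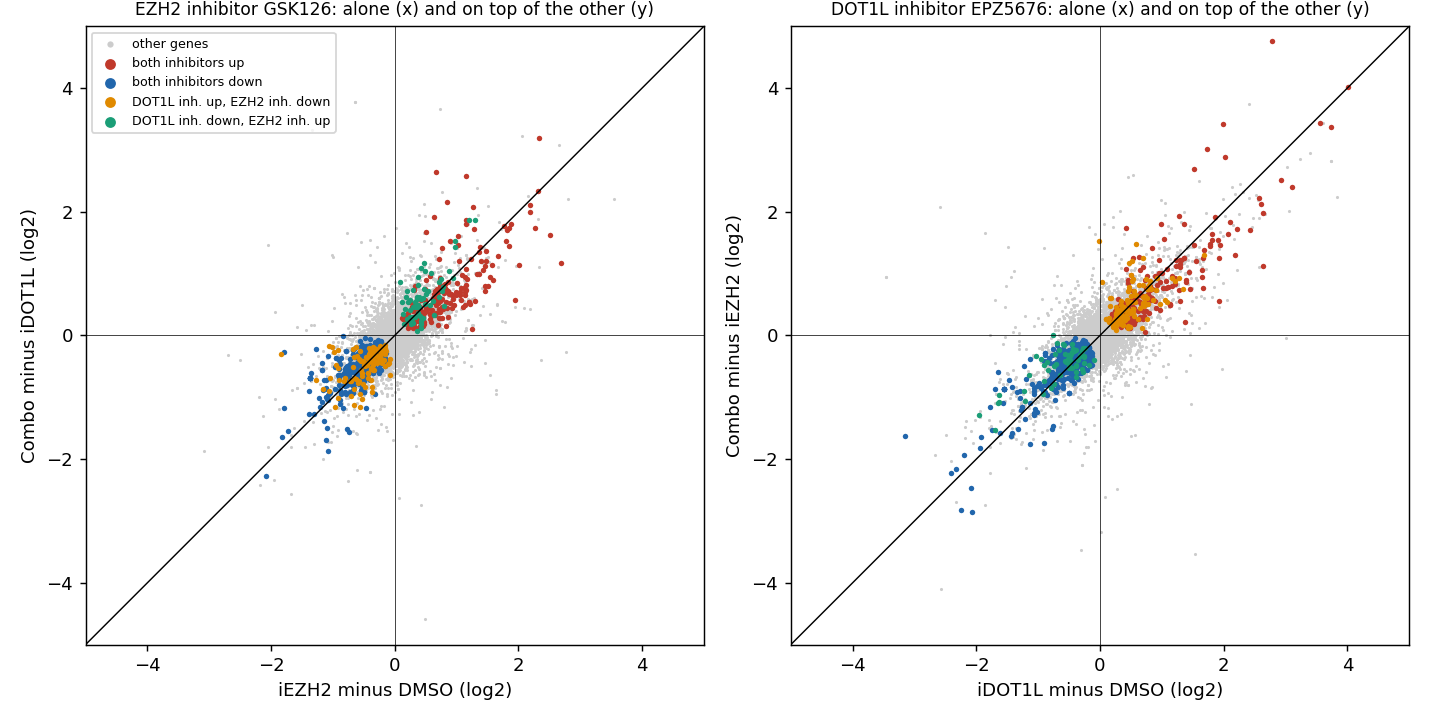
Effect of each inhibitor alone (x axis, log2) and on top of the other (y axis, log2) for genes with a mean log2 level of at least 5 in their highest group; the diagonal marks equal effects and colours mark the classes by mean effect. The coloured genes lie along the diagonal in both panels.

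The log2 sum was also set against 2 other references, a sum on the linear scale and the larger single effect. Among 103 genes raised by more than 0.5 by both mean effects, the median Combo change was 2.15, the log2 sum (a product of folds) gave 2.39, the linear sum 1.85 and the larger single effect 1.40. The observed level was closer to the product in 48 of the 103 genes, and the median rise lay between the product and the linear sum. These references include iEZH2 4 and were not computed without it. The median interaction of the whole class raised by both, -0.10, was -0.026 without that library, which is nearer to the product. Among 112 genes lowered by more than 0.5 by both, the median change was -1.57, and the references gave -1.64, -2.75 and -0.94. The product was closer than the linear sum in 95 of these 112, and in 37 the linear sum predicted a level at or below 0, which no gene can have. Combo went beyond the larger single effect in all 103 and all 112 genes, which the choice of genes by both mean effects favours.

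The KMT2A-fusion and HOX programme was lowered mainly by the DOT1L inhibitor. Its median change was -0.43 in iDOT1L, -0.13 in iEZH2 and -0.60 in Combo. Of 35 genes, all tested, 23 fell and 1 rose in the mean effect of the DOT1L inhibitor, where 6.23% of all genes fell and 5.97% rose. In the mean effect of the EZH2 inhibitor 7 fell and 4 rose, where 6.18% of all genes fell and 4.57% rose. Both mean effects fell in 5 (1.79% of all genes did). The median interaction was 0.024, none passed, and 21 of the 35 intervals lay inside the 1.5-fold bound (60%, against 36% of all genes). MEF2C, FLT3 and HMGA2 show the patterns in the list.

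FLT3 (ENSG00000122025, chr13:28003274-28100592, GRCh38), the receptor tyrosine kinase of haematopoietic progenitors, fell with both inhibitors and the falls added. It stood at 10900, 8234, 9145 and 8689 normalised counts in DMSO and at 8122, 5149, 5553 and 5733 in iDOT1L. The iEZH2 libraries held 6169, 5399, 5441 and 4104 and the Combo libraries 3988, 3289, 3339 and 3240. Every Combo library lay below every library of the other groups, and the single-inhibitor groups overlapped each other. The log2 changes were -0.61 in iDOT1L, -0.82 in iEZH2 and -1.41 in Combo, against a sum of -1.42. Its interaction was 0.0080 ± 0.20 (SE), with a 95% interval of -0.40 to 0.42. A product of the single effects, taken from the group means, would have left 3506 normalised counts, and the Combo mean was 3464 ± 352 (SD, n = 4).

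MEF2C (ENSG00000081189, chr5:88717117-88904257), which encodes a MADS-box factor of early blood cells, also fell with both. It stood at 6827, 6082, 6440 and 6378 in DMSO, at 3933, 2414, 2507 and 2468 in iDOT1L, at 6176, 4799, 4288 and 3049 in iEZH2 and at 1924, 1512, 1776 and 1769 in Combo. No Combo library overlapped another group, while iEZH2 1 reached the range of DMSO. The changes were -1.21, -0.53 and -1.88, and the interaction was -0.14 (95% interval -0.65 to 0.38), or -0.32 without iEZH2 4 and 0.032 without iDOT1L 1. HMGA2 (ENSG00000149948, chr12:65824131-65966295), a chromatin architectural protein, averaged 773 ± 86.4 in DMSO, 253 ± 31.1 in iDOT1L, 704 ± 193 in iEZH2 and 264 ± 31.3 in Combo (SD, n = 4). Its joint level was that of the DOT1L inhibitor alone: the log2 changes were -1.61, -0.17 and -1.55.

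The HOX cofactors MEIS1 and PBX3 passed for the DOT1L inhibitor (down) and not for the EZH2 inhibitor, with interactions of -0.15 (95% interval -0.54 to 0.24) and 0.30 (-0.12 to 0.72), or -0.29 and 0.20 without iEZH2 4. HOXA9, HOXA10 and HOXA5 did the same, with DOT1L inhibitor mean effects of -0.28, -0.37 and -0.93 and interactions of 0.049, 0.12 and 0.16, or 0.011, 0.023 and 0.030 without iEZH2 4. HOXA7, a neighbour in the same cluster, was lowered by the DOT1L inhibitor (-0.31, adjusted p = 0.0117) and raised by the EZH2 inhibitor (0.53, adjusted p = 0.000205), and its Combo level of 333 ± 23.0 lay above the DMSO level of 286 ± 30.4 (SD, n = 4). Its transcripts share 62.2% of their 31-base words with the antisense gene HOXA-AS3, and HOXA9 and HOXA10 share 24.3% and 24.5% with other genes, so these levels are uncertain. CDK6, a kinase of the G1 phase, and CDKN1A, a CDK inhibitor, were lowered by the DOT1L inhibitor and did not pass for the EZH2 inhibitor, with interactions of 0.065 and 0.16, or -0.14 and 0.16 without iEZH2 4. MCL1, a survival protein of the BCL2 family, fell with both by -0.38 and -0.33 and by -0.61 jointly, inside the 1.5-fold bound.

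**Figure D3:**
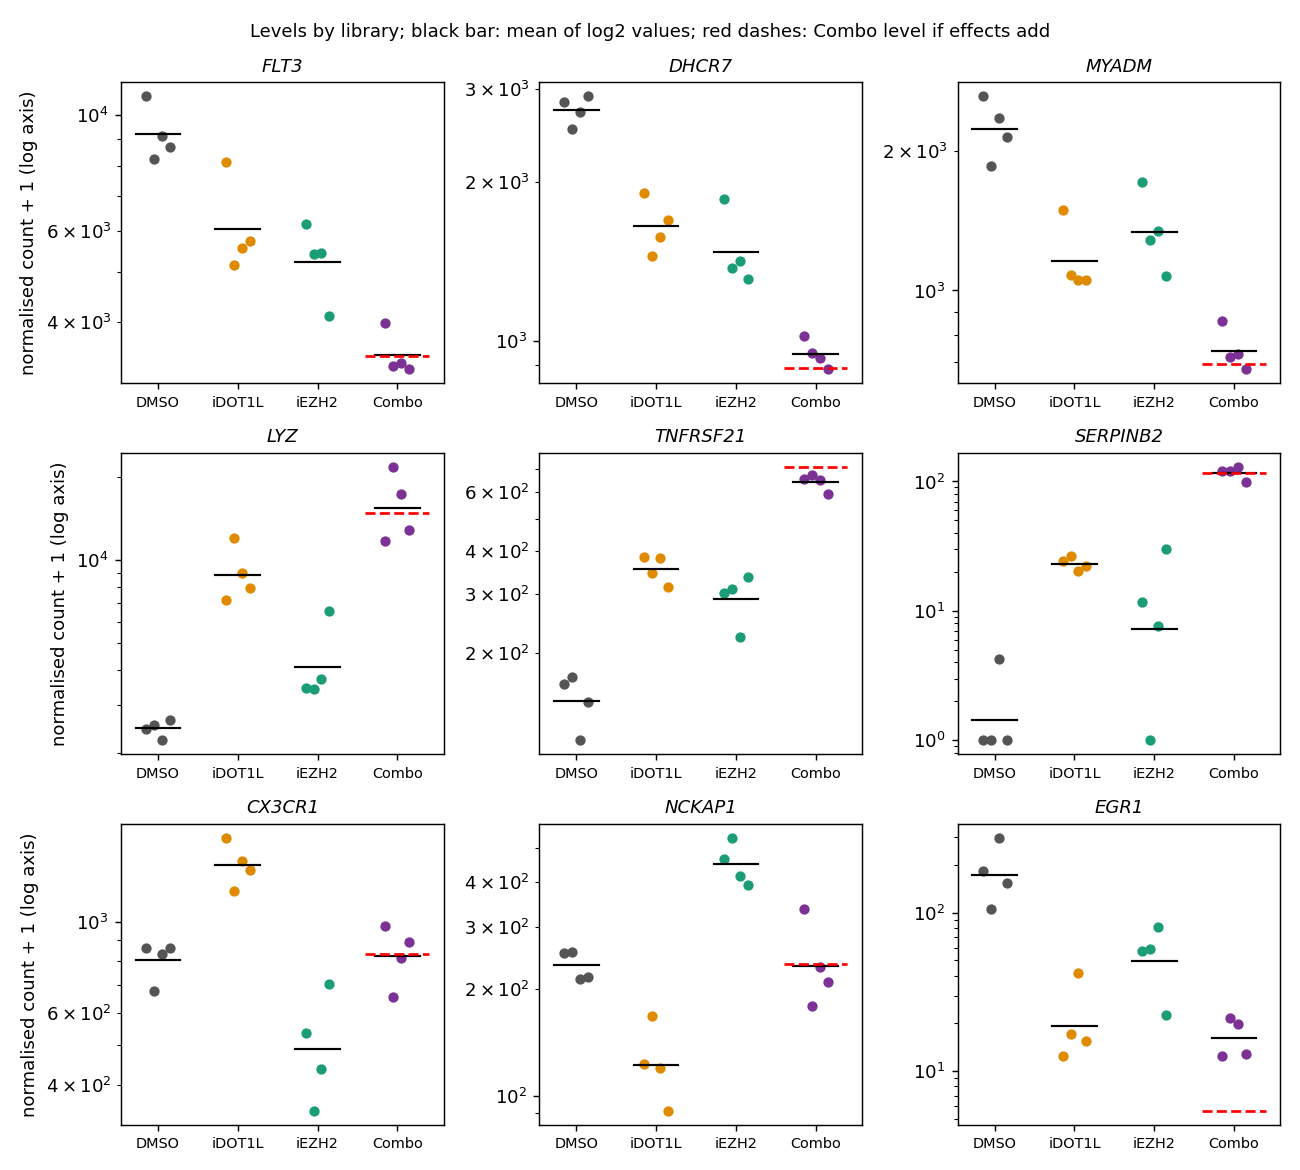
Normalised counts plus 1 on a log axis for 9 genes in the 16 libraries (points), with the mean of the log2 values per group (black bar) and the Combo level expected if the log2 effects add (red dashes). The Combo points of FLT3, DHCR7, MYADM, LYZ, CX3CR1 and NCKAP1 surround or touch the expected level, while the 4 EGR1 points, at 11.4 to 20.6 normalised counts, lie above it.

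Cholesterol synthesis and uptake was the list in which the largest share of members fell with both inhibitors. Of 24 tested genes 12 fell in the mean effect of the DOT1L inhibitor, 22 in that of the EZH2 inhibitor and 12 in both, and 0 passed in the other direction. Of all tested genes 6.23%, 6.18% and 1.79% fell in the same order. The median changes were -0.34 in iDOT1L, -0.66 in iEZH2 and -0.86 in Combo, and 23 of 24 were called down in Combo against DMSO (8.8% of all genes were). The median interaction was 0.12, with 18 of 24 above 0, none passing and 15 inside the 1.5-fold bound. The count for the DOT1L inhibitor was 19 after centring on the median and 7 after quantile normalisation. These genes are switched on together by the transcription factor SREBP2, which binds their promoters beside NF-Y, a factor of the CCAAT box, and SP1.

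The 250 bases before the start of 3 of these genes, all lowered by both inhibitors, are shown because they belong to a sensor, an early and a late step of the pathway. They were read from RefSeq on GRCh38.p14, 5′ to 3′ on the gene's strand, and capitals mark the CCAAT box on either strand (CCAAT or ATTGG). INSIG1 (chr7:155297628-155297877, plus strand) holds the sterol sensor SCAP in the endoplasmic reticulum, DHCR7 (chr11:71448394-71448643, minus strand) catalyses the last step of cholesterol synthesis, and HMGCS1 (chr5:43313413-43313662, minus strand) makes HMG-CoA at its start.
INSIG1: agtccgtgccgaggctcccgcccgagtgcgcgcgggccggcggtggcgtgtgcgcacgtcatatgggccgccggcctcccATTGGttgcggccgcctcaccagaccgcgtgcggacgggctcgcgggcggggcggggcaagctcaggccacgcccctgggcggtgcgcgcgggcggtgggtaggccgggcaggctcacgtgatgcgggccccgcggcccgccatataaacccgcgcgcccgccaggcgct
DHCR7: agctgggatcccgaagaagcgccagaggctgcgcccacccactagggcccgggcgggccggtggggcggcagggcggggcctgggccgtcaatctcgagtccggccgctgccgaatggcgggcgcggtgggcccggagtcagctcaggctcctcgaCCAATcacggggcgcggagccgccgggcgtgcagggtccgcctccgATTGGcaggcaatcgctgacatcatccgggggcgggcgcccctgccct
HMGCS1: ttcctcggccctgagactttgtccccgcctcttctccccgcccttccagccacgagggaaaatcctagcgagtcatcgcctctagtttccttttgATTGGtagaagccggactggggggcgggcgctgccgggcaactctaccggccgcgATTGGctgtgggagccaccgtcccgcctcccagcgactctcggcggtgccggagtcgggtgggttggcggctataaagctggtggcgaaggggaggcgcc
INSIG1 holds 1 CCAAT box in this window and the other 2 genes hold 2 each. Of the 18 list members matched to the RefSeq promoter table, 15 (83.3%) hold CCAAT on either strand in these 250 bases, against 33% of all 27305 promoters. Among the 10 matched members lowered by both inhibitors 8 (80%) do, about the same share as in the whole list. GGGCGG, the GC box, is in 17 of the 18 (94.4%) against 42.3% of all, and TCACNCCAC, a sterol response element, in 1 (5.56%) against 0.875%. These are matches of letters, not measured binding.

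DHCR7 fell with both inhibitors by amounts that added. It stood at 2837, 2523, 2712 and 2909 in DMSO, at 1906, 1449, 1574 and 1694 in iDOT1L, at 1857, 1370, 1412 and 1310 in iEZH2 and at 1020, 947, 926 and 881 in Combo. All libraries of either single inhibitor lay between those of DMSO and Combo. The changes were -0.73, -0.90 and -1.54, and the interaction was 0.090 (95% interval -0.23 to 0.41). INSIG1 averaged 7242 ± 1030, 4556 ± 1070, 3164 ± 944 and 2280 ± 633 in DMSO, iDOT1L, iEZH2 and Combo (SD, n = 4), where a product of the effects would give 1990. Its interval, -0.42 to 0.87 around 0.22, was too wide for the 1.5-fold bound. The DOT1L inhibitor call of INSIG1 was lost after quantile normalisation (limma adjusted p = 0.0533).

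HMGCS1 averaged 6726 ± 1270, 4234 ± 1150, 3171 ± 943 and 2337 ± 576 (SD, n = 4), with an interaction of 0.26 (-0.44 to 0.97). Its mean effect of the DOT1L inhibitor (-0.56, adjusted p = 0.0374) lost its call, with an adjusted p of up to 0.0893, in 11 of the 16 fits that left out 1 library, all except those without DMSO 2, iDOT1L 1, iEZH2 2, iEZH2 4 or Combo 1. In HMGCS1 and INSIG1, replicate 1 was the highest and replicate 2 the lowest library in each of the 4 groups. The fit without pairing left this shared spread in their intervals.

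Fatty acid synthesis and glycolysis showed joint falls of the same kind. Of 15 fatty acid genes 6 fell with the DOT1L inhibitor, 8 with the EZH2 inhibitor and 5 with both, and none rose, where 6.23%, 6.18% and 1.79% of all genes fell. The count of 6 was 3 after quantile normalisation. SCD, the stearoyl-CoA desaturase, averaged 55560 ± 6940, 30870 ± 7380, 27250 ± 6900 and 15870 ± 1790 normalised counts in DMSO, iDOT1L, iEZH2 and Combo (SD, n = 4). Its log2 changes were -0.87, -1.05 and -1.81, with an interaction of 0.12 (95% interval -0.38 to 0.61). Of 25 glycolysis genes 13 fell with the DOT1L inhibitor, 17 with the EZH2 inhibitor and 11 with both, to be read against the same shares, and 15 lay inside the 1.5-fold bound (36% of all genes did). SLC16A3, a lactate exporter, stood at 6653 to 7329 in DMSO, 4138 to 5360 in iDOT1L, 4167 to 5390 in iEZH2 and 3051 to 4138 in Combo. Its changes were -0.59, -0.61 and -1.04 and its interaction 0.16. The median interactions of the 2 lists were 0.11 and 0.029.

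Most monocyte and macrophage markers passed for only 1 inhibitor or for neither. The rest passed for both, some in the same direction and some in opposite ones. Of 52 tested markers 21 rose and 7 fell with the DOT1L inhibitor, where 5.97% of all genes rose and 6.23% fell. With the EZH2 inhibitor 4 rose and 14 fell, where 4.57% of all genes rose and 6.18% fell. Both mean effects were up in 4 (0.949% of all genes), down in 7 (1.79%) and opposite in 5 (178 of all 22331 genes). The median changes were 0.28 in iDOT1L, -0.26 in iEZH2 and 0.28 in Combo. The median interaction was 0.034, and 8 of the 52 lay inside the 1.5-fold bound (15.4%), in a list whose median level was 239 normalised counts. The count of falls with the DOT1L inhibitor was 4 without iEZH2 1 and 4 without Combo 4.

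LYZ (ENSG00000090382, chr12:69348341-69354234), lysozyme, a secreted product of monocytes and granulocytes, rose with both. It stood at 2448, 2538, 2225 and 2640 in DMSO, at 7212, 12080, 8975 and 7933 in iDOT1L, at 3438, 3418, 3698 and 6541 in iEZH2 and at 11730, 21830, 17380 and 12890 in Combo. The fourth iEZH2 library lay well above the other three, and iDOT1L and Combo overlapped in 1 library each. The changes were 1.85, 0.74 and 2.65, and the interaction was 0.062 (95% interval -0.59 to 0.72), or 0.29 without iEZH2 4. LYZ shares 39.3% of its 31-base words with other genes, 31% with AC020656.1, and its level is uncertain.

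TLR4, the endotoxin receptor, and MNDA, a nuclear protein of myeloid cells, rose with both inhibitors, and Combo lay below the product. TLR4 averaged 49.98 ± 9.73, 272 ± 32.0, 150 ± 79.6 and 450 ± 63.0 in DMSO, iDOT1L, iEZH2 and Combo (SD, n = 4), where the product would give 816. The 4 iEZH2 libraries held 125, 82.4, 128 and 265. The interaction of TLR4 was -0.73 (95% interval -1.47 to 0.0043), or -0.41 without iEZH2 4. That of MNDA was -0.34 (-0.97 to 0.30), or -0.11 without that library.

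CCR2, the receptor for the chemokine CCL2, and MPO, the peroxidase of neutrophil granules, rose with the DOT1L inhibitor and did not pass for the EZH2 inhibitor (adjusted p = 0.172 and 0.408). CCR2 stood at 119, 175, 153 and 132 in DMSO, at 1115, 1371, 1270 and 1047 in iDOT1L, at 192, 255, 201 and 539 in iEZH2 and at 926, 1369, 1216 and 937 in Combo. Combo and iDOT1L overlapped, and both lay above every DMSO and iEZH2 library. The interaction of CCR2 was -1.03 (95% interval -1.77 to -0.30, limma adjusted p = 1), or -0.70 without iEZH2 4. MPO stood at 781 to 1078 in DMSO, 4374 to 5597 in iDOT1L and 4627 to 5901 in Combo, and at 872, 941, 913 and 2288 in iEZH2. Its interaction was -0.36, and -0.030 without iEZH2 4. For LYZ, TLR4, MNDA, CCR2 and MPO the fourth iEZH2 library was the highest of its group, and its part in the interaction of each is given by those values.

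ITGAM and ITGAX, the integrin chains CD11b and CD11c, fell with both inhibitors. ITGAM averaged 991 ± 228, 416 ± 151, 481 ± 255 and 219 ± 46.8 in DMSO, iDOT1L, iEZH2 and Combo (SD, n = 4), against a product of 202, and its interval of -0.73 to 1.29 was wide. ITGAX averaged 328 ± 115, 145 ± 42.7, 138 ± 45.1 and 63.7 ± 16.8, against a product of 61.3. CYBB, a subunit of the phagocyte oxidase, rose with both from 72.4 ± 34.2 to 331 ± 39.1 in Combo, with an interaction of 0.51 (-0.17 to 1.2), or 0.23 without DMSO 3. CD36, a scavenger receptor, rose with the DOT1L inhibitor (1.56, adjusted p = 3.52e-06), and its interaction was -0.46, or -0.20 without iEZH2 4. CSF1R, the receptor of macrophage colony-stimulating factor, rose with the DOT1L inhibitor (1.27, adjusted p = 0.00409) and had an EZH2 inhibitor mean effect of -0.64 (adjusted p = 0.141).

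CX3CR1 (ENSG00000168329, chr3:39263494-39281735), the receptor of fractalkine, was raised by the DOT1L inhibitor and lowered by the EZH2 inhibitor, and the effects cancelled. It stood at 862, 677, 833 and 860 in DMSO, at 1596, 1187, 1400 and 1335 in iDOT1L, at 535, 345, 438 and 706 in iEZH2 and at 976, 654, 817 and 888 in Combo. Combo overlapped DMSO, and every iDOT1L library lay above every library of the other groups. The changes were 0.77, -0.72 and 0.037 and the interaction was -0.015 (95% interval -0.52 to 0.49). MS4A6A, a membrane protein of monocytes, had the same opposition, with a Combo change of 0.49 against a sum of 0.73.

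In MHC class II the same opposition was seen in 2 members, the regulator CIITA and CD74. Of 10 tested class II genes 4 rose with the DOT1L inhibitor (5.97% of all genes did). Only these 2 fell with the EZH2 inhibitor (6.18% of all genes did). The list medians did not share the opposition: they were 0.58 in iDOT1L, 0.24 in iEZH2 and 0.61 in Combo. The median level of the list was 32.7 normalised counts. CIITA, the transactivator that switches on class II genes, averaged 248 ± 18.6 in DMSO, 405 ± 58.2 in iDOT1L, 104 ± 26.4 in iEZH2 and 247 ± 49.7 in Combo (SD, n = 4). Combo and DMSO overlapped and the single inhibitors lay on either side. The changes were 0.70, -1.27 and -0.025, and the interaction was 0.54 (95% interval 0.032 to 1.06, adjusted p = 1), so that the Combo mean lay above the product of 171. CD74, the invariant chain, averaged 3693 ± 389, 5383 ± 556, 2813 ± 634 and 4375 ± 408, against a product of 4100. CIITA shares 26.2% of its 31-base words with other genes, and the EZH2 inhibitor call of CD74 was lost after quantile normalisation (adjusted p of up to 0.0782).

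Developmental regulators often marked by PRC2 rose mainly with the EZH2 inhibitor. Of 42 tested members 12 rose and 2 fell with it, where 4.57% of all genes rose and 6.18% fell. With the DOT1L inhibitor 3 rose and 9 fell, where 5.97% of all genes rose and 6.23% fell. The 2 falls and the 3 rises thus lay near the shares of all genes. Opposite effects were seen in 3 members (178 of all 22331 genes). The count of falls with the EZH2 inhibitor was 1 after centring, after quantile normalisation and in 12 of the 16 fits that left out 1 library. The median changes were 0.064 in iDOT1L, 0.47 in iEZH2 and 0.49 in Combo, with a median interaction of -0.040. The list's median level was 20.4 normalised counts and 8 of the 42 lay inside the 1.5-fold bound (19%).

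PAX6 (ENSG00000007372, chr11:31784779-31818062), the paired-box factor of the eye, rose with the EZH2 inhibitor. It stood at 72.3, 131, 95.3 and 88.8 in DMSO, at 125, 134, 132 and 103 in iDOT1L, at 206, 227, 229 and 239 in iEZH2 and at 165, 175, 227 and 176 in Combo. The joint level lay between the single levels, with iEZH2 the highest. The changes were 0.37, 1.24 and 0.96, and the interaction was -0.66 (95% interval -1.15 to -0.17, adjusted p = 1). PAX6 shares 24.8% of its 31-base words with other genes, mostly ELP4. POU4F1, a POU-domain factor of sensory neurons, rose with both by 0.51 and 0.80 and by 1.2 in Combo, inside the bound, and shares 27.2% of its words with an antisense neighbour.

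SIX2, a homeobox factor of kidney progenitors, was lowered by the DOT1L inhibitor and raised by the EZH2 inhibitor, at 241 ± 32.4, 172 ± 32.4, 341 ± 64.4 and 242 ± 14.3 in DMSO, iDOT1L, iEZH2 and Combo (SD, n = 4). HOXB9, a posterior HOX factor, had the same opposition, at 37.6 ± 2.94, 11.8 ± 3.32, 89.5 ± 20.2 and 47.9 ± 22.9. Both returned to near the DMSO level in Combo, SIX2 with an interaction of 0.018 and HOXB9 with 0.66 (95% interval -0.15 to 1.48). CCND1, the cyclin of the G1 phase, from the list of RAS-MAPK feedback genes, moved likewise, with changes of -1.21, 0.75 and -0.31 and an interaction of 0.16, or 0.064 without iEZH2 4 and -0.079 without Combo 4.

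Immediate early and AP-1 genes, transcription factors induced within minutes of growth factor signalling, had the median interaction farthest above 0 among the lists with a median level over 100 normalised counts. Stroma and epithelium markers, at a median level of 20.2, had a higher one, at 0.26. Of 25 tested genes 10 fell and 2 rose with the DOT1L inhibitor, where 6.23% of all genes fell and 5.97% rose, so the 2 rises lay near that share. With the EZH2 inhibitor 7 fell (6.18% of all genes did) and none rose, and all 7 fell with both (1.79% of all genes did). The count of rises with the DOT1L inhibitor was 1 in 11 of the 16 fits that left out 1 library. The median changes were -0.53 in iDOT1L, -0.45 in iEZH2 and -0.70 in Combo. The median interaction was 0.20 and 19 of 25 lay above 0, against 48.7% of all genes. None passed, and 4 had an unadjusted p under 0.05, all above 0. Only 4 of the 25 intervals lay inside the 1.5-fold bound (16%, against 36% of all genes). The list median was not computed without iEZH2 4.

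EGR1 (ENSG00000120738, chr5:138465490-138469315), a zinc finger factor of this group, fell with either inhibitor, and with both hardly further than with the DOT1L inhibitor alone. On the log2 scale Combo lay 0.26 below iDOT1L and 1.63 below iEZH2. It stood at 183, 105, 296 and 153 in DMSO, at 11.5, 16.1, 40.8 and 14.6 in iDOT1L, at 56.3, 57.9, 80.3 and 21.6 in iEZH2 and at 11.4, 20.6, 18.8 and 11.7 in Combo. Combo and iDOT1L overlapped and all treated libraries lay below all DMSO libraries. The changes were -3.16, -1.79 and -3.42 against a sum of -4.95, and the interaction was 1.53 (95% interval 0.31 to 2.75, limma adjusted p = 1), or 1.15 without iEZH2 4. The product would leave 6.09 normalised counts. The EZH2 inhibitor call of EGR1 was lost without DMSO 1, DMSO 3, iDOT1L 3, iEZH2 4, Combo 1 or Combo 4, with an adjusted p of up to 0.0663.

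NR4A1 (ENSG00000123358, chr12:52022832-52059507), an orphan nuclear receptor, had the same form. It stood at 232, 198, 264 and 231 in DMSO, at 76.9, 77.8, 68.4 and 68.5 in iDOT1L, at 121, 112, 106 and 54.3 in iEZH2 and at 76.3, 54.0, 61.3 and 59.0 in Combo. All 3 treated groups overlapped each other and none reached DMSO. The changes were -1.65, -1.28 and -1.87, and the interaction was 1.06 (95% interval 0.44 to 1.67, limma adjusted p = 0.883), or 0.80 without iEZH2 4. JUNB, a subunit of AP-1, stood at 2483 to 3248 in DMSO, 1641 to 1877 in iDOT1L, 1491 to 1963 in iEZH2 and 1331 to 1610 in Combo, with an interaction of 0.44 (0.14 to 0.74, adjusted p = 1). EGR3, a relative of EGR1, had the fourth of these intervals above 0, 0.86 to 3.73, at a level of only 23.2 ± 5.42 in DMSO (SD, n = 4).

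Other members of the list did not share that form. FOS, the partner of JUN proteins in AP-1, averaged 459 ± 110, 301 ± 110, 252 ± 81.4 and 156 ± 23.1 (SD, n = 4) in DMSO, iDOT1L, iEZH2 and Combo, against a product of 165. Its interaction was -0.00034, with a 95% interval of -0.73 to 0.72. JUN rose with the DOT1L inhibitor by 1.99 in iDOT1L and stood 2.53 above DMSO in Combo, with an interaction of 0.22. That value ran from 0.0087 without iEZH2 2 to 0.50 without DMSO 2, and was 0.45 without iEZH2 4.

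Lists of dividing cells had small median changes and narrow intervals. Of 41 DNA replication and S phase genes 5 rose with the EZH2 inhibitor (4.57% of all genes did) and 3 fell with the DOT1L inhibitor (6.23% of all). The count of 5 was 13 without DMSO 2, 8 without iDOT1L 2 or iEZH2 1, 3 without DMSO 1 or iDOT1L 1, 1 after centring, 12 after quantile normalisation and 18 with a replicate block, with which the count of 3 was 15. Their median change was -0.055 in iDOT1L, 0.21 in iEZH2 and 0.040 in Combo, and their median interaction was -0.13, with 4 of 41 above 0. None passed, none had an unadjusted p under 0.05, and 35 of 41 lay inside the 1.5-fold bound. Mitosis genes had a median interaction of -0.061, with 8 of 38 above 0 and 34 inside the bound. Ribosome biogenesis genes had a median of 0.030 with 28 of 30 inside. Members of such lists vary together, so their counts are not independent.

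**Figure D4:**
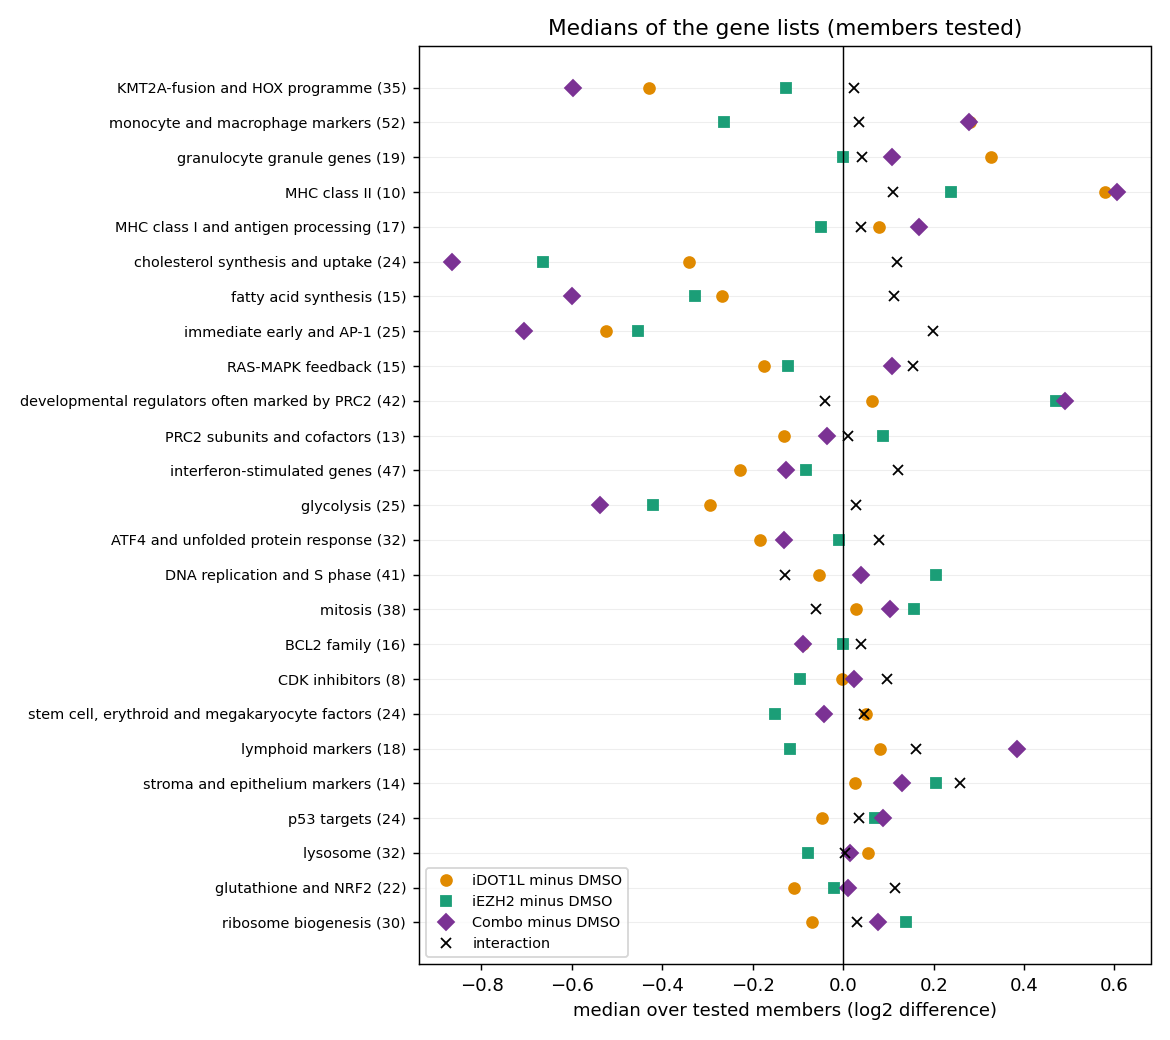
Median log2 difference over the tested members of 25 gene lists (y axis, members tested in brackets) for iDOT1L, iEZH2 and Combo against DMSO and for the interaction. Cholesterol synthesis has the lowest Combo median at -0.86, and the interaction medians run from -0.13 for DNA replication to 0.26 for stroma and epithelium markers.

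Several genes give close measurements of joint rises that added. TNFRSF21, the death receptor DR6, stood at 161, 169, 109 and 142 in DMSO, at 383, 344, 381 and 313 in iDOT1L, at 300, 308, 221 and 335 in iEZH2 and at 653, 671, 648 and 590 in Combo. All Combo libraries lay above all others. The changes were 1.30, 1.00 and 2.15 and the interaction was -0.15 (95% interval -0.57 to 0.28). DAB2, an endocytic adaptor, TSC22D1, a TGF-beta responsive regulator, and KLHL13, an adaptor of a cullin ubiquitin ligase, reached Combo changes of 1.497, 1.49 and 1.43 against sums of 1.59, 1.69 and 1.60. CKAP4, a membrane protein of the endoplasmic reticulum, reached 1.77 against a sum of 1.78. Its DOT1L inhibitor mean effect (0.41, adjusted p = 0.0326) lost its call without DMSO 1, DMSO 4, iDOT1L 3, iEZH2 1, iEZH2 3, Combo 1 or Combo 3, with an adjusted p of up to 0.102. The 5 genes were the largest joint rises among those whose interval lay inside the bound, so that their additivity is how they were chosen.

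Joint falls chosen in the same way were those of MYADM, HMX3, FES and SYNPO2, besides DHCR7. MYADM, a membrane protein of differentiating myeloid cells, averaged 2247 ± 326, 1170 ± 214, 1355 ± 266 and 744 ± 78.9 in DMSO, iDOT1L, iEZH2 and Combo (SD, n = 4), against a product of 705. FES, a tyrosine kinase of myeloid cells, averaged 4455 ± 336, 2795 ± 193, 2634 ± 393 and 1597 ± 119, against 1653. HMX3, a homeobox factor, and SYNPO2, an actin-binding protein, reached Combo changes of -1.53 and -1.46 against sums of -1.5 and -1.63. Each of these 4 genes was lower in every Combo library than in any library of the other groups.

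Cancelling effects chosen in that way included NCKAP1, a subunit of the WAVE complex of actin assembly. It stood at 252, 254, 212 and 215 in DMSO, at 122, 168, 119 and 89.8 in iDOT1L, at 464, 533, 415 and 393 in iEZH2 and at 335, 179, 230 and 209 in Combo. The changes were -0.93, 0.94 and -0.0047, and Combo overlapped DMSO. CD244, a receptor of natural killer cells and monocytes, changed by 0.78, -0.66 and 0.093. POPDC3, a membrane protein that binds cyclic AMP, changed by -0.79, 0.61 and -0.24. ICAM3, an adhesion molecule of leukocytes, changed by 0.81, -0.43 and 0.45, shares 63.8% of its words with AC114271.1, and lost its EZH2 inhibitor call after quantile normalisation (adjusted p of up to 0.0751).

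Low genes with large folds showed how the choice of scale matters. SERPINB2 (ENSG00000197632, chr18:63871692-63903890), which monocytes make on activation and which blocks plasminogen activators, stood at 0, 0, 3.24 and 0 in DMSO, at 23.1, 25.6, 19.3 and 21.1 in iDOT1L, at 10.7, 0, 6.60 and 29.01 in iEZH2 and at 119, 119, 129 and 97.6 in Combo. Every Combo library lay above all others. On the log2 scale the changes were 4.01, 2.32 and 6.34, with an interaction of 0.0067 whose interval, -2.12 to 2.13, is too wide to show whether they added. It was -0.94 without iEZH2 2 and 0.69 without iEZH2 4. On the linear scale, with each gene divided by its own mean level, SERPINB2 was the only gene that passed, with a joint excess of 2.20 times its mean level (limma adjusted p = 0.00829). An unadjusted p under 0.05 on that scale was reached by 1012 genes (4.53%), 598 above and 414 below 0.

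LUM, the collagen-binding proteoglycan lumican, stood at 0, 3.13, 0 and 1.81 in DMSO, at 6.18, 9.20, 7.09 and 4.44 in iDOT1L, at 8.11, 6.74, 4.66 and 18.0 in iEZH2 and at 92.1, 57.5, 63.0 and 64.8 in Combo. Every Combo library lay above every other library, and the interaction was 0.86 (95% interval -0.52 to 2.24), or 1.204 without iEZH2 4 and 0.475 without DMSO 2. EBF1, a B-cell transcription factor, went the other way, from 2.28 ± 1.78 in DMSO to 18.2 ± 9.13, 21.1 ± 15.1 and 39.7 ± 11.5 (SD, n = 4), with an interaction of -1.52 (-3.15 to 0.11). The log2 differences of these low genes depend on the pseudocount of 1.

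**Figure D5:**
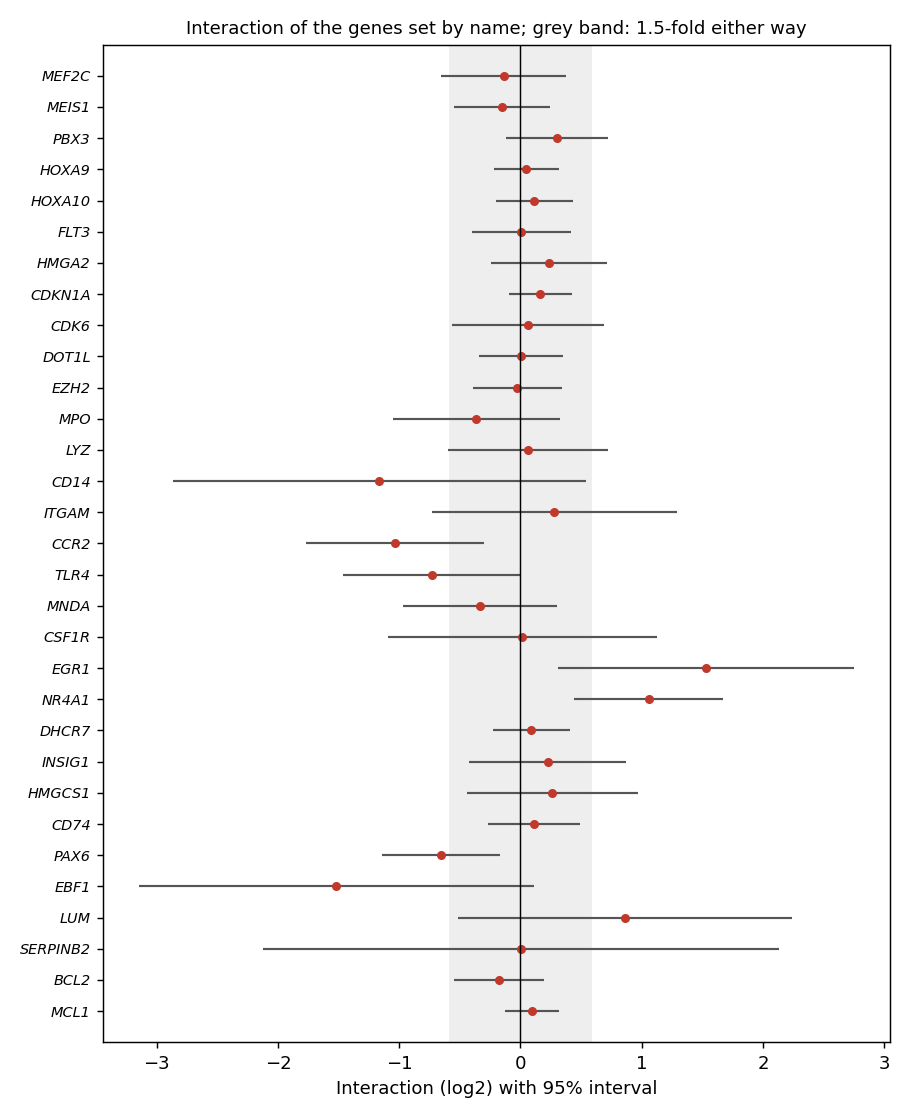
Interaction (x axis, log2) with its 95% interval for 31 of the genes set by name; the grey band is the bound of 1.5-fold either way. Intervals of well expressed genes such as FLT3, DHCR7 and MCL1 lie inside the band, while those of EGR1, NR4A1, CCR2 and PAX6 leave 0 outside without passing the adjusted test.

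The genes with the lowest p of the interaction, among those with an approved symbol and a log2 level of at least 5 in their highest group, are given as values that did not pass. VAT1L, a protein of the quinone oxidoreductase family, had the lowest p among those below 0. It stood at 2635, 2943, 2256 and 2348 in DMSO, at 4039, 4433, 3951 and 4284 in iDOT1L, at 4441, 4386, 4176 and 4932 in iEZH2 and at 4998, 4381, 4568 and 4688 in Combo. The 3 treated groups overlapped at about the same level, and the interaction was -0.66 (95% interval -0.92 to -0.41, limma adjusted p = 0.242). TRIM26, a ubiquitin ligase, passed in neither mean effect and had an interaction of -1.09 (adjusted p = 0.276).

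Above 0, CHST13, a chondroitin sulfotransferase, averaged 905 ± 23.1, 767 ± 31.8, 605 ± 13.1 and 750 ± 39.6 in DMSO, iDOT1L, iEZH2 and Combo (SD, n = 4). Its Combo level overlapped that of iDOT1L, and the interaction was 0.55 (95% interval 0.33 to 0.77, adjusted p = 0.276). SOX18, EGFL7 and ENG, known from endothelial cells, had interactions of 0.69, 0.75 and 0.44, with adjusted p of 0.382, 0.708 and 0.835. ENG, a TGF-beta coreceptor, averaged 1124 ± 48.9 in DMSO and 863 ± 14.4, 866 ± 72.5 and 901 ± 35.1 in iDOT1L, iEZH2 and Combo. RASD1, a small GTPase, stood at 139 ± 16.2, 52.6 ± 10.9, 57.2 ± 16.2 and 61.8 ± 26.3, so that each inhibitor alone and both together gave about the same level.

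The lowest p among the genes named by this rule, that of the readthrough gene BLOC1S5-TXNDC5, cannot be read as a level. The pseudogene POTEKP, which the rule passed over, had a lower one, with the same adjusted p of 0.0895. BLOC1S5-TXNDC5 was at 0 in all 8 libraries of iDOT1L and iEZH2 and at 0, 0, 32.4 and 0 in DMSO, against 26.9 to 87.0 in Combo. Its transcripts share 99.1% of their 31-base words with other genes, 87.7% with TXNDC5. ABHD14A-ACY1, another readthrough gene, and TLR9 share 89.3% and 85.5%, and their interactions of -1.31 and -1.25 are uncertain for the same reason. The other genes named by the rule above 0 were HECW2, SLC22A23, TFAP2A and CGREF1, and those below 0 were LCORL, PPP2R3A, EHD2, ORAI2, RC3H1 and NEDD4L, all with an adjusted p of at least 0.708.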

How the data were processed

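RNA-seq libraries of 16 Molm14 samples were analysed, 4 in each group. The submitters' processing notes name kallisto, DESeq2 and the hg38 build, with versions not given in the sources used here. Timing differs within the labels: the extraction text places RNA at 3 days past sorting and the treatment text runs for 7 days. The treatment text was followed. The authors deposited 1 table of log2 values for 22445 Ensembl genes, whose form is that of a DESeq2 variance-stabilising transformation (inferred from the values), with 6.28106 as the shared lowest value, standing for a count of 0. Of these IDs 20784 matched GENCODE release 29, which gave symbols and GRCh38 positions, and 1661 were kept by ID.

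The values were turned back into normalised counts. The sum of these per library is a scaled total and not the number of reads sequenced. Genes above 1 normalised count in at least 4 libraries were tested (22331). Limma 3.58.1 in R 4.3.3 took log2(normalised count + 1) as its response and used 4 group means, 12 residual degrees of freedom, trend and robust empirical Bayes, and Benjamini-Hochberg adjustment over all tested genes (threshold 0.05). The design also provided for a count model, which was not used because the table holds no counts. The step was also run on simulated counts with the same dispersion for all genes and no outlying library. That run does not show what could be detected in these data. Folds understate the change of genes near the pseudocount of 1.

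The genes, the 25 lists and the rules were chosen with earlier results of these data known. Genes were named as follows: a fixed set of 36 (some are not reported here), the 10 lowest p of the interaction in each direction among genes with a log2 level of at least 5 in their highest group, because none passed (the rule on passing list members therefore named none), and the 5 largest joint effects inside the 1.5-fold bound per class (both up, both down, opposite). Readthrough genes were kept, and pseudogenes and clone names were passed over. The members FOS, JUNB, EGR3, JUN, SCD, ITGAX, CD36, CYBB, CIITA, MS4A6A, HOXA5, HOXA7, HOXB9, SIX2, POU4F1, CCND1 and SLC16A3 were chosen after their values were seen. For named genes the share of 31-base words of their transcripts found in other genes was counted. Counting was not stated to use strand. Residual correlations between libraries of the same replicate number were 0.0061 to 0.19, all positive. They were not all above the set value of 0.1 in any pair of groups, so the main fit did not pair libraries. Spread shared by libraries of the same number, as in HMGCS1 and INSIG1, thus stayed in its intervals. Alternatives covered the pseudocount, the scale, the filter, the scaling between libraries, empirical Bayes, library weights, a replicate block and leaving out each library.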

Additional observations from a re-analysis of the deposited data

Results flagged for a closer look

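A library was set apart where its gap to the nearest of the other 3 libraries of its group exceeded the 95% critical value of Dixon's ratio. Of 384 groups of 4 values checked 25 did so, where chance alone gives about 1 in 20. None of these values was removed.

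In iEZH2 4, MPO stood at 2288 normalised counts (the others at 872 to 941) and LYZ at 6541 (3418 to 3698). The same library had the lowest mean log2 level, relative to all libraries, of the genes lowered by the DOT1L inhibitor and raised by the EZH2 inhibitor, at 0.35 against 0.56 to 0.58. In iDOT1L 1, MEF2C stood at 3933, MYADM at 1490 and HMX3 at 1385, each the highest of its group, and the level of genes raised by both inhibitors was the lowest, at 0.015. All 3 of these genes fell with the DOT1L inhibitor, so that for them iDOT1L 1 lay nearer to DMSO than the other 3 libraries of its group did.

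In Combo 1, FLT3 was the highest at 3988 and DOT1L the lowest at 4235 (6328 to 6650). In Combo 2, CDK6 was the highest at 7361, and in Combo 3 PAX6 at 227 and CGREF1 at 304.5. In iDOT1L 2 CD14 was the highest at 6.92, in iDOT1L 3 EGR1 at 40.8, and in iDOT1L 4 TLR4 the lowest at 224. EZH2 was the lowest of its group in DMSO 1 at 1579 and in iEZH2 1 at 1842.

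In DMSO 2, MPO at 1078 and DOT1L at 6946 were the highest and CD74 at 3113 and CX3CR1 at 677 the lowest. In DMSO 3, SERPINB2 at 3.24 and BLOC1S5-TXNDC5 at 32.4 were above 0 where the other 3 libraries held 0, CYBB was the highest at 123 (48.5 to 59.6), and the level of genes raised by both inhibitors was the highest, at -0.855 (-0.89 in the other 3).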

How the results depend on the processing

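No interaction passed with other pseudocounts, filters or scalings between libraries. On the log2 scale 1 gene passed above 0 without trend and robust moderation (POTEKP, 3.81, limma adjusted p = 0.0262), and it passed without iEZH2 4 as well (4.19, 0.0214). The fits leaving out 1 library gave 0 to 1 genes above 0 and 0 to 1 below: BLOC1S5-TXNDC5 passed without DMSO 3 (5.73, 0.000279) and SMN2 without DMSO 4 (-4.45, 0.00712). Additivity on the linear scale gave 1 above 0. Unadjusted p under 0.05 numbered 1161 without Combo 2 and 1337 with array weights, against 848.

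The deposited log2 scale, which is compressed at low levels, put 20240 genes inside the 1.5-fold bound, and the fits without 1 library put 7226 to 7932 there. The median interaction of genes lowered by the DOT1L inhibitor and raised by the EZH2 inhibitor was 0.041 on the deposited scale, 0.082 with the replicate block and 0.037 to 0.24 without 1 library, the ends being iEZH2 4 and iDOT1L 4. For the reverse class it was -0.067 to 0.12, the ends being iEZH2 3 and iEZH2 4, for genes raised by both -0.19 to -0.026, and for genes lowered by both 0.012 to 0.15.

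The replicate block gave 0 interactions past the threshold and 1466 with an unadjusted p under 0.05, and it raised the calls to 2045 up and 2440 down for the DOT1L inhibitor and to 1981 up and 2446 down for the EZH2 inhibitor. Of the 16 libraries 12 correlated best with a library of their own number. Calls up for the EZH2 inhibitor numbered 676 after centring on the median and 1594 with array weights. The cause of these moves was not tested. No named gene reversed a called direction. Of 2391 refitted interactions of named genes 2366 did not pass and stayed within 1 SD between replicates of the value given, 24 moved further and 1 passed. For the mean effects of the DOT1L and EZH2 inhibitors 45 and 56 of as many refits lost a call and 19 and 33 gained one.

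Precision differed with the level of a gene: the interval lay inside the 1.5-fold bound for 2.14% of genes between 10 and 100 normalised counts and for 86.1% of those at 1000 or more. The data come from 1 line with 4 libraries per group.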
